A study of Mus musculus with 24 samples.

Results

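CD8 and CD4 T lymphocytes were compared within 3 wild-type mice that carried a transplanted B-cell lymphoma. The comparison uses 6 of the 24 libraries of the series, chosen by their labels: the 3 CD8 and the 3 CD4 libraries of the lymphoma group with genotype Atmwt/wt (WT), joined in pairs by the mouse identifier that a CD8 and a CD4 library share. All mice were C57BL/6N, each of these libraries held the cells of 1 mouse, and the T cells came from spleen. The labels give neither age nor sex, the amount or time of transplantation, nor how CD8 and CD4 cells were separated. Other groups used here were WT mice without transplant (WT control, 3 CD8 and 3 CD4 libraries, each a pool of 2 or 3 mice) and Atm-/- mice with the same kind of transplant (KO lymphoma, 3 and 3 libraries, each a pool of 2 mice). Atm-/- mice without transplant (KO control, 3 and 3 libraries, each a pool of 2 mice) entered the joint fit of all 24 libraries. Their own contrast is not given. Atm is the gene of a kinase that responds to double-strand breaks in DNA, and the labels do not say which allele disrupts it.

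The libraries were 3′ tag libraries, in which a read stands for the end of a polyadenylated transcript. Expression is given in CPM, the estimated count scaled to a common library total, and differences as log2 fold changes of CD8 over CD4 with their standard error after ±. "Rose" and "fell" stand for higher and lower in CD8 where edgeR's quasi-likelihood test, with the mouse as a block, gave a Benjamini-Hochberg adjusted p under 0.05. The 6 libraries held 7046205 to 8738458 counts each and had counts for 15978 to 16397 genes. The sum of the Y-linked genes Uty, Ddx3y and Eif2s3y was at 4.89, 1.46 and 159 CPM in CD8 and at 4.72, 1.8 and 114 CPM in CD4 libraries of mice 1, 2 and 3, so mouse 3 stood apart in both of its libraries, and the comparison within mice does not set it against the others.

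T cells leave the thymus in a helper branch that keeps the co-receptor CD4 and a cytotoxic branch that keeps CD8. The factor ThPOK, encoded by Zbtb7b, holds the helper branch, and RUNX3 holds the cytotoxic branch by repressing Cd4 and helper genes. CD4 cells further divide into helper, follicular helper and regulatory cells, whereas CD8 cells arm granules with granzymes and perforin and share several receptors with natural killer cells.

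The co-receptor genes were examined first. Cd8a, on chromosome 6 (GRCm38, 71373427 to 71379173), encodes the CD8 alpha chain and was at 429.7, 333 and 304 CPM in the CD8 libraries of mice 1, 2 and 3, against 15.4, 4.28 and 2.77 CPM in the CD4 libraries. The gap between the groups was wide in every mouse, and CD4 library 1 held the most Cd8a of the CD4 libraries (log2 fold change 5.78 ± 0.49, adjusted p = 0.000145). Cd8b1, the beta chain gene, was at 508, 449 and 375 CPM in CD8 and 27.3, 15.4 and 12.7 CPM in CD4 libraries, a rise of 4.64 ± 0.26 (adjusted p = 1.18e-06). Cd4, also on chromosome 6 (124864692 to 124888221), was at 5.87, 2.39 and 2.04 CPM in CD8 libraries and at 128, 104 and 101 CPM in CD4 libraries (-5.08 ± 0.48, adjusted p = 0.000221). The labels of all 6 libraries thus matched their own co-receptor gene, and mouse 1 had the most RNA of the other co-receptor in both of its libraries.

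**Figure D1:**
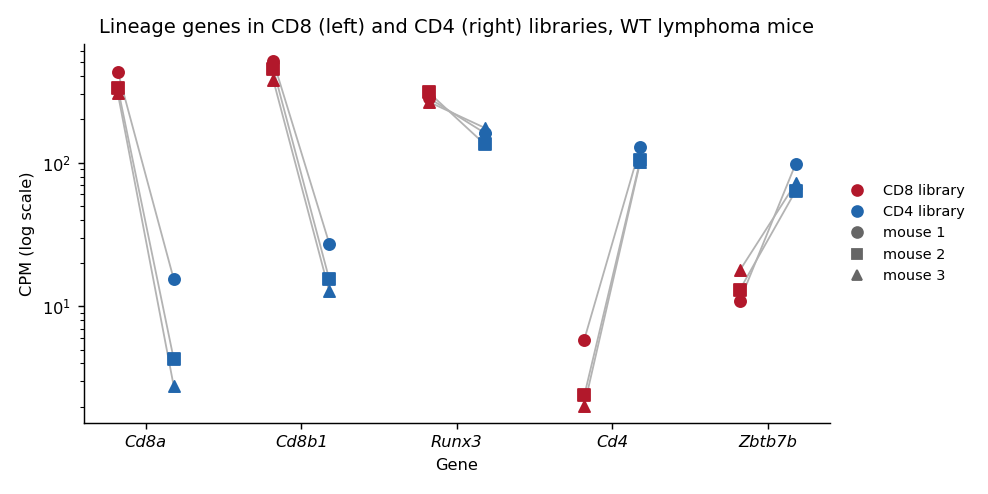
CPM (log axis) of 5 lineage genes in the 3 CD8 (red, left) and 3 CD4 (blue, right) libraries of WT lymphoma mice, with lines joining the libraries of 1 mouse. Cd8a and Cd8b1 lie above 300 CPM in every CD8 library, Cd4 above 100 CPM in every CD4 library, and Runx3 is well above 100 CPM in both cell types.

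The pair of branch factors differed in opposite directions. Zbtb7b was at 10.9, 13 and 17.8 CPM in CD8 and 98.4, 63.8 and 72 CPM in CD4 libraries, with no overlap, and fell by 2.48 ± 0.33 on the log2 scale (adjusted p = 0.00138). Runx3 was at 281.5, 308 and 265 CPM in CD8 libraries against 161, 134 and 174.5 CPM in CD4 libraries, so it was well expressed in both and rose by 0.87 ± 0.14 (adjusted p = 0.0024, but 0.0543 without mouse 2). Atm itself was at 194.5, 161 and 172 CPM in CD8 and at 151, 173 and 114.5 CPM in CD4 libraries, which overlapped (0.28 ± 0.15, adjusted p = 0.458).

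Promoter sequences are shown because RUNX factors bind the core motif TGTGGT and RUNX3 is the factor that defines the CD8 branch. The 250 bases before the RefSeq start are given for 3 genes of the CD8 lineage list whose windows hold the motif and for 1 gene of each lineage list whose window does not, chosen after the matches were seen. Runx3 itself (GRCm38.p6, chr4:135120395-135120644, plus strand), Cst7, a granule protease inhibitor (chr2:150570165-150570414, plus), and the chemokine gene Xcl1 (chr1:164935523-164935772, minus) hold it, in capitals, and Cd8a (chr6:71373177-71373426, plus) and Ctla4 (chr1:60908775-60909024, plus) do not. Each line runs 5′ to 3′ toward the start, and ACCACA is the same motif on the other strand.
Runx3: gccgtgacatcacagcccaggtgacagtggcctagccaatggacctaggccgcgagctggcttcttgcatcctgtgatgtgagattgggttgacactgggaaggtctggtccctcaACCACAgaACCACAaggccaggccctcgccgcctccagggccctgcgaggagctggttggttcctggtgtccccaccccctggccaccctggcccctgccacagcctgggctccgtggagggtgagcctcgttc
Cst7: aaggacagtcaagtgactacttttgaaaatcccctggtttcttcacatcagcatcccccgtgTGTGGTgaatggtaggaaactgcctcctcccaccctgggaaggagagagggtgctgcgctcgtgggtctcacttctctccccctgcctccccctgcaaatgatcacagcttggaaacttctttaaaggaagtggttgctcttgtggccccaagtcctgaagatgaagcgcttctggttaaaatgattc
Xcl1: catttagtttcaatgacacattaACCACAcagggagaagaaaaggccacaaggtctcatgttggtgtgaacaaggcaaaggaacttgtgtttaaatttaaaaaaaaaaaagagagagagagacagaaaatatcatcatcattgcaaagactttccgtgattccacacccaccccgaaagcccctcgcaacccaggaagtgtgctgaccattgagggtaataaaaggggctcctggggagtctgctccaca
Cd8a: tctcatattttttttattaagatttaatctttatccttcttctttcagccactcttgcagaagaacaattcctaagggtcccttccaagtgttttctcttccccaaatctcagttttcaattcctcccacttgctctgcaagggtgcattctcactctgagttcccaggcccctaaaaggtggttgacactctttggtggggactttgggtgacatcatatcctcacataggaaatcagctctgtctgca
Ctla4: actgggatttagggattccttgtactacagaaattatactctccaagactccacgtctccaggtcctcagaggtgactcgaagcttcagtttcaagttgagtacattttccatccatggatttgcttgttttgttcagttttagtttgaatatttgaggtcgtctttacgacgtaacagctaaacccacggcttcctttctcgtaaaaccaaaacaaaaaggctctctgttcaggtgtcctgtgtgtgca

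The motif stands at -134 and -126 from the start shown for Runx3, whose other RefSeq window (chr4:135152295-135152594, plus) does not hold it, at -188 in Cst7 and at -227 in Xcl1. In windows of 300 bases (250 before and 50 after a start), 16.8% of all 32851 RefSeq windows held TGTGGT on either strand, and so did 13.4% of the windows of the genes tested here. Of the genes that rose in CD8, 164 of 219 had windows and 47 of these 209 windows held it (22.5%). Of the genes that fell, 176 of 238 had windows and 27 of 238 windows held it (11.3%). In the CD8 lineage list 7 of 12 windows held it (10 of 15 genes matched), and in the CD4 lineage list 1 of 7 (6 of 10 genes matched). Both lists were chosen with earlier results of these data known, so these shares describe the lists alone. A match is a description of these letters and shows no binding.

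Across all genes, 457 of 13232 tested (3.45%) differed between CD8 and CD4 cells of the WT lymphoma mice. Of these, 219 rose (1.66% of the genes tested) and 238 fell (1.8%). The change was over 1 on the log2 scale in 120 genes that rose and below -1 in 120 that fell, and past 2 in 47 in each direction. The 3 CD8 libraries did not overlap the 3 CD4 libraries in 435 of the 457 genes, where 18.4% of all genes tested had no overlap. Leaving out mouse 1, 2 or 3 left 219, 191 and 264 calls.

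**Figure D2:**
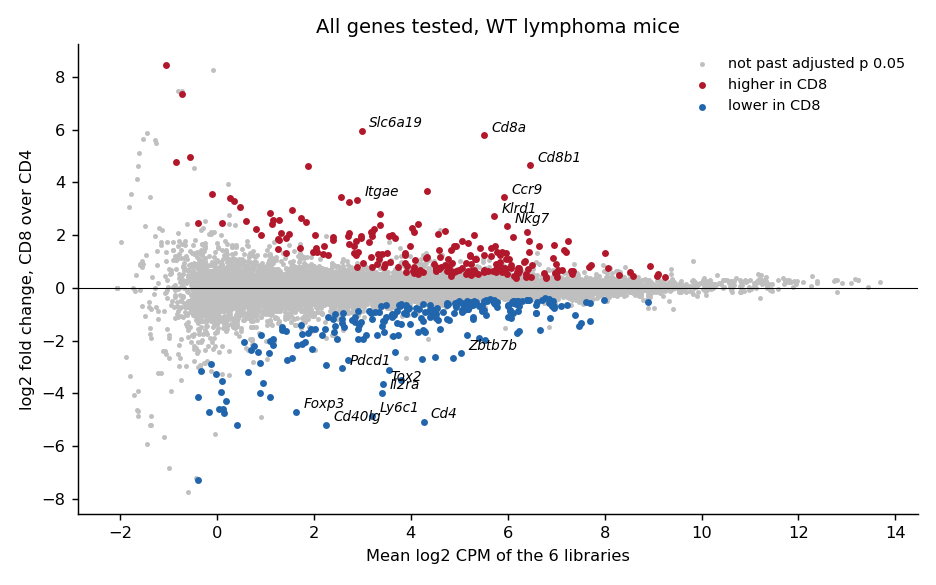
Log2 fold change of CD8 over CD4 against the mean log2 CPM of the 6 WT lymphoma libraries, 1 point per gene tested, with the 219 genes that rose in red and the 238 that fell in blue. Most genes lie near 0 (median -0.01), and Slc6a19, Cd8a and Cd8b1 stand at the top among well-expressed genes, opposite Cd4, Cd40lg and Ly6c1.

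Beside the co-receptor genes, the largest rises among genes averaging at least 5 CPM and without overlap were of genes with varied roles. The 15 largest rises and 15 largest falls were chosen without overlap of the CD8 and CD4 libraries. A lack of overlap in these genes is thus no result. Slc6a19, a neutral amino acid transporter on chromosome 13 (73679745 to 73704865), was at 61.3, 61.8 and 47.7 CPM in CD8 and 1.37, 0.562 and 0.831 CPM in CD4 libraries (5.95 ± 0.26, adjusted p = 4.35e-09). Every CD8 library was far above every CD4 library, and the 3 mice differed little. Lcn4, of the lipocalin family, was at 21, 14.5 and 15.3 CPM in CD8 against 0.373, 1.35 and 0.277 CPM in CD4 libraries (4.60 ± 0.41). Adgrg5, an adhesion G protein-coupled receptor, reached 87.8, 68.6 and 58.5 CPM in CD8 and 6.83, 4.61 and 5.26 CPM in CD4 libraries (3.68 ± 0.27). Bend4 (3.45 ± 0.24), the transcription factor gene Snai3 (2.95 ± 0.37), Ggt1, which encodes an enzyme of glutathione turnover (2.80 ± 0.26), the potassium channel gene Kcnc1 (2.64 ± 0.30), Plekha6 (2.56 ± 0.38), Rcn3, a calcium-binding protein of the endoplasmic reticulum (2.49 ± 0.29), and the killer receptor pseudogene Klra13-ps (2.43 ± 0.26) rose as well, with adjusted p from 1.25e-06 to 0.000844. Reads of Klra13-ps cannot be told apart with certainty from those of related Klra genes.

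Nearly all genes of the CD8 lineage list rose: 14 of the 15 measured were higher, none fell, and the median was 2.34 against -0.01 over all genes. This list, like all lists here, was chosen with earlier results of these data known, so its count and median describe it and are no test. Counts of this and the following lists stand beside 3.45% of all genes tested called, 1.66% higher and 1.8% lower. With 1 mouse left out, 11 to 13 members rose. Ccr9, the receptor for a chemokine of gut and thymus, was at 245.5, 186 and 172.5 CPM in CD8 libraries against 21.7, 17.1 and 16.9 CPM in CD4 libraries (3.43 ± 0.15, adjusted p = 4.35e-09). Itgae, the integrin chain of CD103 that binds E-cadherin (chromosome 11, 73090583 to 73147446), was at 27.8, 22.3 and 18.3 CPM in CD8 and 2.86, 2.59 and 1.39 CPM in CD4 libraries (3.33 ± 0.33, adjusted p = 3.2e-05). In both genes the groups were far apart, and mouse 1 had the highest value in each cell type. Eomes, a T-box factor of cytotoxic and memory cells, was at 50.6, 49.9 and 41.9 CPM in CD8 and at 11.9, 9.56 and 12.7 CPM in CD4 libraries (2.06 ± 0.20, adjusted p = 2.23e-05). Crtam, an adhesion receptor, rose by 2.37 ± 0.27 (adjusted p = 9.66e-05). The member that did not pass was Klrk1, the gene of the activating receptor NKG2D (0.76 ± 0.22, adjusted p = 0.0946).

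Of 17 cytotoxic granule genes measured, 6 rose and none fell, with a median of 0.49. Gzmm, granzyme M, was at 18.6, 19.9 and 20.3 CPM in CD8 against 2.86, 1.01 and 2.49 CPM in CD4 libraries (3.24 ± 0.34, adjusted p = 0.000114). Nkg7, a granule membrane protein, was at 153, 141 and 135 CPM in CD8 and 23.1, 29.5 and 32.8 CPM in CD4 libraries (2.34 ± 0.25, adjusted p = 0.000157). Every mouse showed both differences. Ctsw, a cathepsin of killer cells (2.28 ± 0.30, adjusted p = 0.000835), and Cst7 (1.36 ± 0.20, adjusted p = 0.00112) rose too. Prf1, perforin, was at 54, 67.1 and 55.1 CPM in CD8 and 28.3, 25.3 and 29.4 CPM in CD4 libraries (1.08 ± 0.23, adjusted p = 0.0187), and Serpinb6b, a protease inhibitor, rose by 0.81 ± 0.16 (adjusted p = 0.00884). These last 2 missed the threshold without any 1 of the mice, with adjusted p from 0.0519 to 0.201. The granzymes best known from activated killers, named here after their values were seen, did not pass. Gzmb was at 4.77, 6.91 and 6.9 CPM in CD8 and 2.73, 4.05 and 6.92 CPM in CD4 libraries (0.49 ± 0.54, adjusted p = 0.806), and Gzma at 63.1, 84.5 and 98.5 CPM in CD8 against 30.3, 46.5 and 60.7 CPM in CD4 libraries (0.87 ± 0.25, adjusted p = 0.0949).

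Killer lectin receptors, which natural killer cells and some CD8 cells carry, rose in 6 of 21 measured and fell in none, with a median of 0.85. Klrd1, the CD94 gene, was at 150, 141 and 114 CPM in CD8 and 24.5, 20.3 and 17.4 CPM in CD4 libraries (2.71 ± 0.28, adjusted p = 0.000145). Its partner Klrc1, which encodes the inhibitory chain NKG2A, was at 107, 152 and 161 CPM in CD8 libraries and at 43.5, 45.8 and 76.6 CPM in CD4 libraries (1.37 ± 0.23, adjusted p = 0.00551, but 0.0749 without mouse 2). Neither overlapped between the cell types, which for Klrd1, as one of the largest rises, was a condition of its choice. Klrc1 was lowest in mouse 1 in both cell types. Klrc2 (1.34 ± 0.20), Klra7 (1.92 ± 0.33), Klra6 (3.31 ± 0.74) and Klri2 (1.52 ± 0.33) rose with adjusted p from 0.00166 to 0.0171. The count was 4, 3 and 4 without mouse 1, 2 and 3, and 2 without the block on mouse. The Klra and Klrc genes are families of near-identical copies, so how reads were split among them is uncertain.

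Among chemokine and migration receptors 4 of 20 rose and 2 fell. Cxcr6, the receptor for CXCL16, was at 156.5, 139 and 107 CPM in CD8 against 38.8, 31.4 and 35.6 CPM in CD4 libraries (1.92 ± 0.25, adjusted p = 0.000794). S1pr5, a sphingosine phosphate receptor, rose by 0.78 ± 0.20 (adjusted p = 0.0406), but its libraries overlapped and it missed the threshold without any 1 mouse (adjusted p from 0.099 to 0.266) and without the block on mouse (0.922). Ccr4, a receptor of helper and regulatory cells, fell by 2.34 ± 0.48 (adjusted p = 0.0105, but 0.0612 without mouse 2 and 0.099 without mouse 3). Gpr183, an oxysterol receptor that guides cells in lymphoid tissue, fell by 0.79 ± 0.15 (adjusted p = 0.00662, but 0.0863 without mouse 1 and 0.0917 without mouse 2). Leaving out mouse 2 left 2 that rose and none that fell. Both chemokine ligand genes that rose, of 11 measured, encode products of killer cells. Ccl5 was at 191, 234 and 230.2 CPM in CD8 and 47.6, 86.7 and 84.1 CPM in CD4 libraries (1.62 ± 0.29, adjusted p = 0.0102), and Xcl1 at 17.4, 19.8 and 18.7 CPM in CD8 against 3.23, 5.85 and 3.88 CPM in CD4 libraries (2.13 ± 0.41, adjusted p = 0.0109). Without any 1 mouse both missed the threshold, with adjusted p from 0.0593 to 0.108.

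On the CD4 side, 9 of the 10 CD4 lineage genes fell in CD8 and none rose, with a median of -2.55. This list too was chosen with earlier results of these data known. Cd40lg, the ligand by which helper cells activate B cells (chromosome X, 57212143 to 57224042), was at 1.1, 0.665 and 0.339 CPM in CD8 libraries and at 32.5, 25.8 and 19 CPM in CD4 libraries (-5.20 ± 0.52, adjusted p = 0.000101). St8sia6, a sialyltransferase, was at 3.67, 3.99 and 4.41 CPM in CD8 against 56, 46.7 and 35.7 CPM in CD4 libraries (-3.49 ± 0.34, adjusted p = 6.42e-05). In both genes even the lowest CD4 library was far above the highest CD8 library. Both are among the largest falls, which were chosen without overlap. Icos, a costimulatory receptor, was at 46.7, 49.9 and 39.6 CPM in CD8 and 85.2, 97.7 and 117 CPM in CD4 libraries (-1.13 ± 0.14, adjusted p = 0.000221). Gata3, a helper factor, fell by 0.87 ± 0.14 (adjusted p = 0.00232, and 0.0527 without mouse 1), and Tox by 0.70 ± 0.15 (adjusted p = 0.0123). Tnfsf8, the CD30 ligand gene, did not pass (-0.24 ± 0.24, adjusted p = 0.779).

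Regulatory T cell genes fell in 13 of 17 measured and rose in none, with a median of -1.95, and leaving out 1 mouse left 10 to 12. Foxp3, the factor that defines regulatory cells (chromosome X, 7573644 to 7595245), was at 0.856, 0 and 0.792 CPM in CD8 libraries, where it had 7, 0 and 7 counts, and at 14.3, 13.7 and 15.9 CPM in CD4 libraries (-4.70 ± 0.58, adjusted p = 0.000439). Il2ra, the high-affinity chain of the interleukin 2 receptor, was at 2.45, 3.59 and 1.81 CPM in CD8 and 40.1, 41.9 and 39.9 CPM in CD4 libraries (-3.98 ± 0.20, adjusted p = 2.43e-08). The CD4 libraries of the 3 mice were nearly level in both genes. Izumo1r, folate receptor 4, was at 12, 10.4 and 12.2 CPM in CD8 against 65.8, 63.2 and 92.5 CPM in CD4 libraries (-2.66 ± 0.14, adjusted p = 4.24e-08). Lrrc32, which anchors latent TGF-beta on the cell surface (-3.98 ± 0.61), Ikzf4, the Eos gene (-2.74 ± 0.24), the checkpoint receptor gene Ctla4 (-2.61 ± 0.30), Gpr83 (-1.95 ± 0.27), Nrp1, neuropilin 1 (-1.80 ± 0.21), and Tnfrsf18, the GITR gene (-0.94 ± 0.11), fell as well, with adjusted p from 8.03e-06 to 0.00121. Itgb8, the chain of an integrin that activates TGF-beta, had 0, 0 and 3 counts in CD8 and 17, 35 and 24 counts in CD4 libraries (adjusted p = 0.00423, and 0.0569 without mouse 2), and with Itgae, which rose, it was 1 of 2 called genes among 14 integrins. As these are bulk libraries, fewer cells of a type and less RNA per cell cannot be told apart.

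Follicular helper genes fell in 8 of 13 measured and rose in none, with a median of -1.13. Tox2, an HMG-box factor of follicular helper cells, was at 3.42, 2.66 and 2.71 CPM in CD8 and 39.1, 30.8 and 41.3 CPM in CD4 libraries (-3.65 ± 0.30, adjusted p = 8.03e-06). Pdcd1, the PD-1 gene, was at 1.96, 1.46 and 2.49 CPM in CD8 libraries against 12.4, 22.3 and 16.1 CPM in CD4 libraries (-3.05 ± 0.32, adjusted p = 5.19e-05). Both were lower in the CD8 library of every mouse, and both are among the largest falls, which were chosen without overlap. Maf was at 112, 105 and 108 CPM in CD8 and 277, 317 and 287 CPM in CD4 libraries (-1.44 ± 0.20, adjusted p = 0.000844). Il21, the cytokine of follicular help, had 2, 1 and 0 counts in CD8 and 49, 48 and 24 counts in CD4 libraries (adjusted p = 0.00176). Cd200 (-1.78 ± 0.30, adjusted p = 0.00286) and Btla (-0.96 ± 0.17, adjusted p = 0.00344, and 0.061 without mouse 2), both inhibitory to other cells or to the cell itself, fell too. The receptor Cxcr5 (-0.92 ± 0.26, adjusted p = 0.0678) and the factor Bcl6 (-0.46 ± 0.20, adjusted p = 0.329), named after their values were seen, did not pass.

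Helper factors and cytokines gave few calls beyond these. Of 12 helper transcription factors Gata3, Maf and Rora fell (Rora by 0.91 ± 0.14, adjusted p = 0.00121), and Tbx21, the T-bet gene, rose, at 109, 117 and 115 CPM in CD8 against 50.3, 56.2 and 67.2 CPM in CD4 libraries (0.99 ± 0.20, adjusted p = 0.0134). Tbx21 missed the threshold without any 1 mouse (adjusted p from 0.0532 to 0.143). Of 14 effector helper cytokines 6 were measured and Il21 alone passed. Among TNF family receptors and ligands 5 of 20 fell and none rose. Tnfrsf4, the OX40 gene, was at 5.5, 3.72 and 2.71 CPM in CD8 and 26.8, 43.1 and 33.7 CPM in CD4 libraries (-3.11 ± 0.38, adjusted p = 0.000602), Tnfrsf25, death receptor 3, fell by 1.66 ± 0.21 (adjusted p = 0.000227), and Tnfsf11, the RANK ligand gene, had 1, 0 and 2 counts in CD8 against 25, 23 and 34 counts in CD4 libraries (adjusted p = 0.00171). Of 15 inhibitory receptors 6 fell and 1 rose, with a median of -0.03, against -0.38 for the TNF family list. Cd160, a receptor that CD8 and natural killer cells carry, was the one that rose, at 10.9, 12.2 and 10.5 CPM in CD8 and 3.97, 3.71 and 3.05 CPM in CD4 libraries (1.65 ± 0.26, adjusted p = 0.0015).

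**Figure D3:**
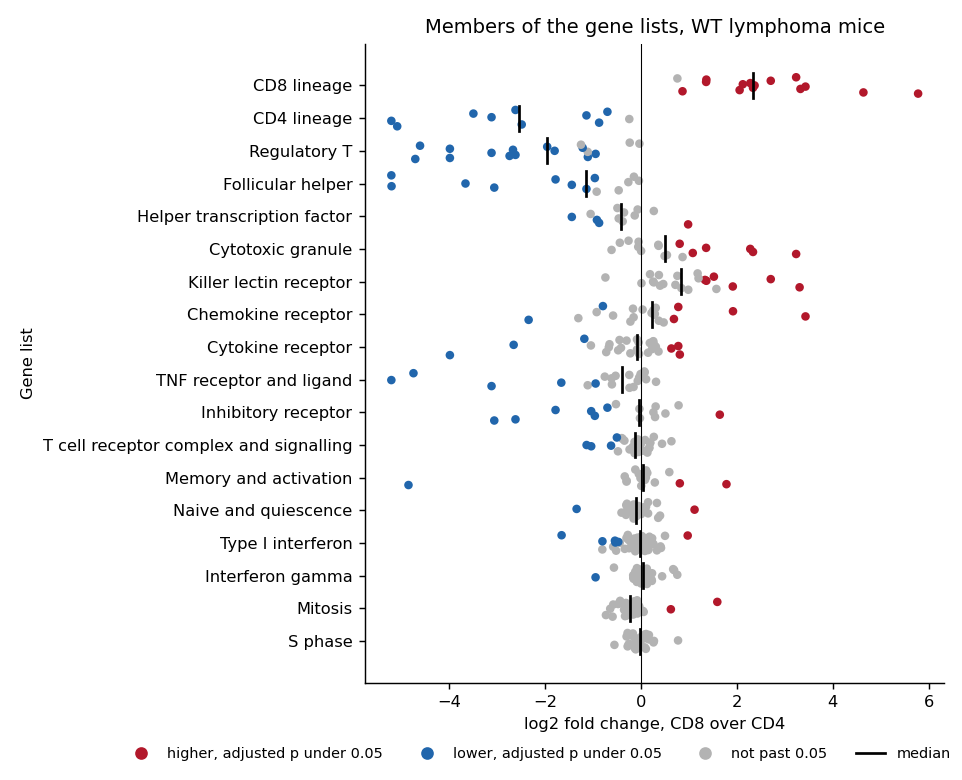
Log2 fold changes of CD8 over CD4 in WT lymphoma mice for the members of 18 gene lists, 1 point per gene, red where higher and blue where lower at an adjusted p under 0.05, with the median as a bar. The CD8 lineage genes lie right of 0, the CD4 lineage, regulatory and follicular helper genes left of it, and the interferon, mitosis and S phase genes around it.

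Other large falls lay outside the helper lists. Ly6c1, a small surface protein (chromosome 15, 75044018 to 75048830), was at 1.59, 1.86 and 1.36 CPM in CD8 and 42.2, 45.9 and 50.4 CPM in CD4 libraries (-4.84 ± 0.31, adjusted p = 1.18e-06). Its neighbour and close paralog Ly6c2 (75108158 to 75111970) went the other way, at 230.1, 276.4 and 343 CPM in CD8 against 59, 83.5 and 108 CPM in CD4 libraries (1.78 ± 0.23, adjusted p = 0.000614). Reads of near-identical sequence may have been split between them, which makes both values uncertain. Penk, the enkephalin precursor, was at 0.489, 0.266 and 0.453 CPM in CD8 and 4.6, 6.86 and 10.8 CPM in CD4 libraries (-4.12 ± 0.45, adjusted p = 6.69e-05). Sp6, a zinc-finger factor, fell by 2.92 ± 0.30 (adjusted p = 3.96e-05), the pseudogene Art2a-ps by 3.59 ± 0.74 (adjusted p = 0.0137, and 0.122 without mouse 2 and 0.106 without mouse 3) and Ear1, a ribonuclease, by 2.73 ± 0.59 (adjusted p = 0.0171, and from 0.0873 to 0.155 without 1 mouse).

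Some genes of the T cell receptor and of T cell state passed. In each list of this paragraph the share called exceeded the 3.45% called over all genes tested. The 20 pan-T genes, which check the cell type named in the labels, were present in both cell types. They summed to 5127, 4554 and 3873 CPM in the CD8 libraries of mice 1, 2 and 3. The CD4 libraries had 5850, 5349 and 4605 CPM, so the CD8 sum was lower in each mouse. Of the 20 pan-T genes 3 fell and none rose, with a median of -0.18. Cd3e was at 178, 138 and 131 CPM in CD8 and 175, 186 and 130.5 CPM in CD4 libraries. Of 27 receptor and signalling genes none rose and 4 fell, namely Cd28 (-1.13 ± 0.17, adjusted p = 0.00111), Cd5, which dampens receptor signals (-1.03 ± 0.14, adjusted p = 0.000604), Cd6 (-0.62 ± 0.16, adjusted p = 0.0395) and Rasgrp1 (-0.50 ± 0.13, adjusted p = 0.0408), with 2 left when any 1 mouse was left out. Cd28 was at 83.8, 79.2 and 74.1 CPM in CD8 and at 201, 176 and 145 CPM in CD4 libraries. Of 20 memory and activation genes Ly6c2 and Il2rb rose and Ly6c1 fell. Il2rb, the shared receptor chain for interleukins 2 and 15, was at 592, 711 and 660 CPM in CD8 and 325, 315 and 500.4 CPM in CD4 libraries (0.81 ± 0.16, adjusted p = 0.00944, but 0.101 without mouse 1 and 0.16 without mouse 2). Of 23 naive and quiescence genes Dapl1 rose (1.12 ± 0.25, adjusted p = 0.0264), a call lost without any 1 mouse (adjusted p from 0.152 to 0.167) or without the block (0.144). Igfbp4 fell, at 142, 104 and 104 CPM in CD8 against 371, 287 and 232 CPM in CD4 libraries (-1.34 ± 0.14, adjusted p = 5.41e-05). Of 28 cytokine receptors 3 rose and 3 fell, among them Tgfbr3, a TGF-beta co-receptor, which fell by 1.18 ± 0.17 (adjusted p = 0.000861), and the number that rose was 0, 0 and 1 without mouse 1, 2 and 3.

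Response programmes are given beside the 3.45% called over all genes tested. Of 55 type I interferon genes 1 rose and 5 fell, a larger share than over all genes, with a median of -0.02. Ly6a, the Sca-1 gene, was at 38.9, 33.6 and 56.3 CPM in CD8 and 108, 133 and 159 CPM in CD4 libraries (-1.65 ± 0.15, adjusted p = 1.2e-05), and Ms4a4c at 70.2, 79.8 and 92.5 CPM in CD8 against 36.9, 36.2 and 50.7 CPM in CD4 libraries (0.98 ± 0.14, adjusted p = 0.000559). Slfn5 (-0.53 ± 0.10), Ifi44 (-0.80 ± 0.19), Ifi27l2a (-0.47 ± 0.11) and Ifih1 (-0.54 ± 0.14) fell by less, with adjusted p from 0.00567 to 0.0435. The number that fell was 1, 1 and 3 without mouse 1, 2 and 3, and 1 without the block on mouse. Iigp1, an interferon-induced GTPase, fell by 0.94 ± 0.14 (adjusted p = 0.000844, but 0.19 without the block) as the 1 gene of 33 on the interferon gamma list. No gene passed in edgeR, DESeq2 or limma voom among 25 immediate early, 17 heat shock, 34 S phase and 22 glycolysis genes. Of these, 9, 2, 2 and 4 had an unadjusted p under 0.05 in edgeR, the largest share being in the immediate early list. The 3.45% is a share at an adjusted p. No share of all genes at the unadjusted threshold stands beside these counts, so they describe the lists alone. In all, 1 of 26 p53 targets passed, Ccng1 (-0.48 ± 0.12, adjusted p = 0.0424, and from 0.105 to 0.357 without 1 mouse). Of 32 mitosis genes Racgap1, a regulator of cell division, rose, at 51.7, 55.7 and 51 CPM in CD8 and 11.9, 20 and 21.7 CPM in CD4 libraries (1.59 ± 0.22, adjusted p = 0.000832), and so did Kif23, its partner in the midzone complex (0.63 ± 0.14, adjusted p = 0.0218). The call on Kif23 was lost without any 1 mouse (adjusted p from 0.0868 to 0.182) and without the block (0.374). The median of the mitosis list was -0.23.

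Markers of other cells were present in both cell types. The B cell list summed to 499 to 710.4 CPM in CD8 and 658 to 708.5 CPM in CD4 libraries, with Cd79a, a chain of the B cell receptor complex, at 6.36, 1.06 and 1.7 CPM in CD8 and 7.58, 2.59 and 2.08 CPM in CD4 libraries. Of its 26 genes Cd72 rose and none fell, a share near the 3.45% called over all genes tested, with a median of -0.30. Cd72 missed the threshold without any 1 mouse (adjusted p from 0.13 to 0.294) and without the block (0.184). The natural killer list summed to 344 to 525 CPM in CD8 against 188 to 319 CPM in CD4 libraries, and 6 of its 17 genes rose, namely Eomes, Cd160, Xcl1, Klri2, Prf1 and S1pr5, of which CD8 cells are known to express several. The number was 2 whichever mouse was left out, and 4 without the block. Its defining receptor gene Ncr1 was at 4.28, 4.52 and 6.9 CPM in CD8 and 1.99, 2.7 and 2.08 CPM in CD4 libraries (1.18 ± 0.45, adjusted p = 0.243). Whether natural killer cells had a part in the granule and killer receptor results was not tested. The gamma-delta T cell list summed to 128 to 134 CPM in CD8 and 294.8 to 342 CPM in CD4 libraries. Maf alone was called and made up most of the sum in each library, so the lower sum in CD8 is that of Maf. The defining gene of the list, Trdc, was at 5.62, 8.38 and 5.54 CPM in CD8 against 4.72, 6.75 and 5.82 CPM in CD4 libraries. Of the innate-like T cell list Cxcr6 and Cd160 rose, while its defining factor Zbtb16 was at 1.47, 1.2 and 4.07 CPM in CD8 and 3.1, 2.59 and 3.6 CPM in CD4 libraries. None of the 26 B cell or 17 natural killer genes was at 0 throughout a cell type, Tcrg-V6 and Trav11 were at 0 in the CD8 libraries and Sox13 in the CD4 libraries.

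**Figure D4:**
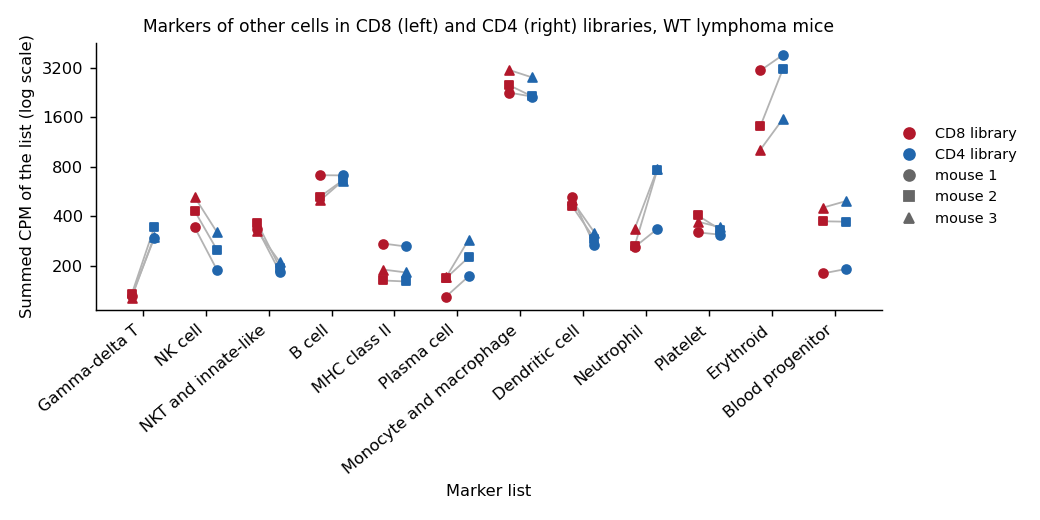
Summed CPM (log axis) of 12 marker lists of other cells in the 3 CD8 (red, left) and 3 CD4 (blue, right) libraries of WT lymphoma mice, with lines joining the libraries of 1 mouse. The natural killer, innate-like T cell, dendritic cell, monocyte and macrophage, and platelet lists are higher in CD8 in every mouse. The neutrophil, gamma-delta T cell, plasma cell and erythroid lists are lower in CD8 in every mouse. The gamma-delta T cell sum is mostly Maf, and most of the CD8 excess of the dendritic cell list is Ccr9. The major histocompatibility class II list lies close together, and the B cell list does so in mouse 1 and is lower in CD8 in mice 2 and 3.

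Among markers of other blood cells the neutrophil list gave the most calls. Over all genes tested 3.45% were called. It summed to 260 to 335 CPM in CD8 and 335 to 774 CPM in CD4 libraries, and 3 of 17 genes fell, with a median of -1.25. These were Mpo, Prtn3 and Elane, enzymes of immature granules, and all 3 overlapped between the cell types. Mpo was at 8.8, 40 and 49.2 CPM in CD8 and 19, 101.5 and 102 CPM in CD4 libraries (-1.17 ± 0.18, adjusted p = 0.00166), so each mouse had less in CD8 and mouse 1 had the least. Without the block on mouse none of the 3 passed, and with any 1 mouse left out Elane missed the threshold (adjusted p from 0.0577 to 0.119). The monocyte and macrophage list summed to 2260 to 3106 CPM in CD8 and 2139 to 2802 CPM in CD4, and the erythroid list to 1016 to 3079 CPM in CD8 and 1567 to 3835 CPM in CD4 libraries, and no gene of either passed in edgeR, DESeq2 or limma voom (3 of 26 and 0 of 17 at an unadjusted p under 0.05). No platelet or blood progenitor gene passed with these tools either (1 of 14 and 0 of 18 unadjusted). The unadjusted counts have no share of all genes beside them and describe the lists alone. Dendritic cell and plasma cell markers each held 1 called gene, Ccr9 and Prdm1, which T cells also express. Prdm1 missed the threshold without mouse 1 (adjusted p = 0.126) or mouse 3 (0.119). The class II list held 1, H2-Oa (1.29 ± 0.32, adjusted p = 0.0359), which was lost without any 1 mouse (adjusted p from 0.141 to 0.287) and without the block (0.116).

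The same contrast was set beside that in WT control mice, which asks whether the difference between CD8 and CD4 cells was itself altered with lymphoma. In WT control mice 637 genes passed (4.81%), and 357 were shared, which is 78.1% of the 457 and 56% of the 637. All 357 had the same sign. In a test of the difference of differences 0 genes passed (0%) with edgeR, DESeq2 or limma voom. Of the 13232 tested, 365 had an unadjusted p under 0.05. That is a share below 0.05, the share that would pass with no difference at all. With 3 pairs in each group the test can miss differences, so 0 calls do not show that the contrasts were the same. WT lymphoma libraries held 1 mouse and WT control libraries 2 or 3 mice each, and the part of pooling was not tested. The median of the CD8 lineage list was 2.34 in WT lymphoma and 2.46 in WT control mice. Other medians were -1.95 in WT lymphoma and -1.78 in WT control mice for regulatory T cell genes, and -1.13 in WT lymphoma and -0.94 in WT control mice for follicular helper genes. Some lists of other cells stood further apart, with the neutrophil list at -1.25 in WT lymphoma and -0.69 in WT control mice and the monocyte and macrophage list at 0.32 in WT lymphoma and -0.32 in WT control mice. The median over members of the difference itself was -0.73 for the regulatory T cell list, 0.03 for the CD8 lineage list and 0.57 for the monocyte and macrophage list.

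The smallest p of that test belonged to Eng, Ier3 and Asb2, all with an adjusted p of 1. Eng, endoglin, a TGF-beta co-receptor, was at 18.8, 15.7 and 12.1 CPM in CD8 and 4.1, 7.54 and 7.48 CPM in CD4 libraries of WT lymphoma mice. The WT control mice had 16.9, 14 and 13.6 CPM in CD8 and 1.55, 0.855 and 1.2 CPM in CD4 libraries. The contrast was thus 1.29 ± 0.28 with lymphoma against 3.62 ± 0.34 without (difference -2.33 ± 0.45, unadjusted p = 0.000108), and the CD4 libraries were the ones that did not overlap. Ier3, an immediate early gene, differed by -1.58 ± 0.33 (unadjusted p = 0.000268) and Asb2, part of a ubiquitin ligase, by 0.95 ± 0.21 (unadjusted p = 0.000463). Among genes described above, chosen after their values were seen, Itgae stood at 3.33 ± 0.33 in WT lymphoma and 5.04 ± 0.37 in WT control mice (unadjusted p = 0.00492), Pdcd1 at -3.05 ± 0.32 with lymphoma and -1.58 ± 0.33 without (unadjusted p = 0.0068), and Tox2 at -3.65 ± 0.30 with lymphoma and -2.37 ± 0.30 without (unadjusted p = 0.0112). None of these passed adjustment. The score of other cells, a mean log2 CPM over B cell and blood cell markers, ran from 3.89 to 4.01 in CD8 and 4.13 to 4.21 in CD4 libraries of WT lymphoma mice, and from 1.93 to 3.75 in CD8 and 2.59 to 3.89 in CD4 libraries of WT control mice. Its part in these differences was not tested.

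**Figure D5:**
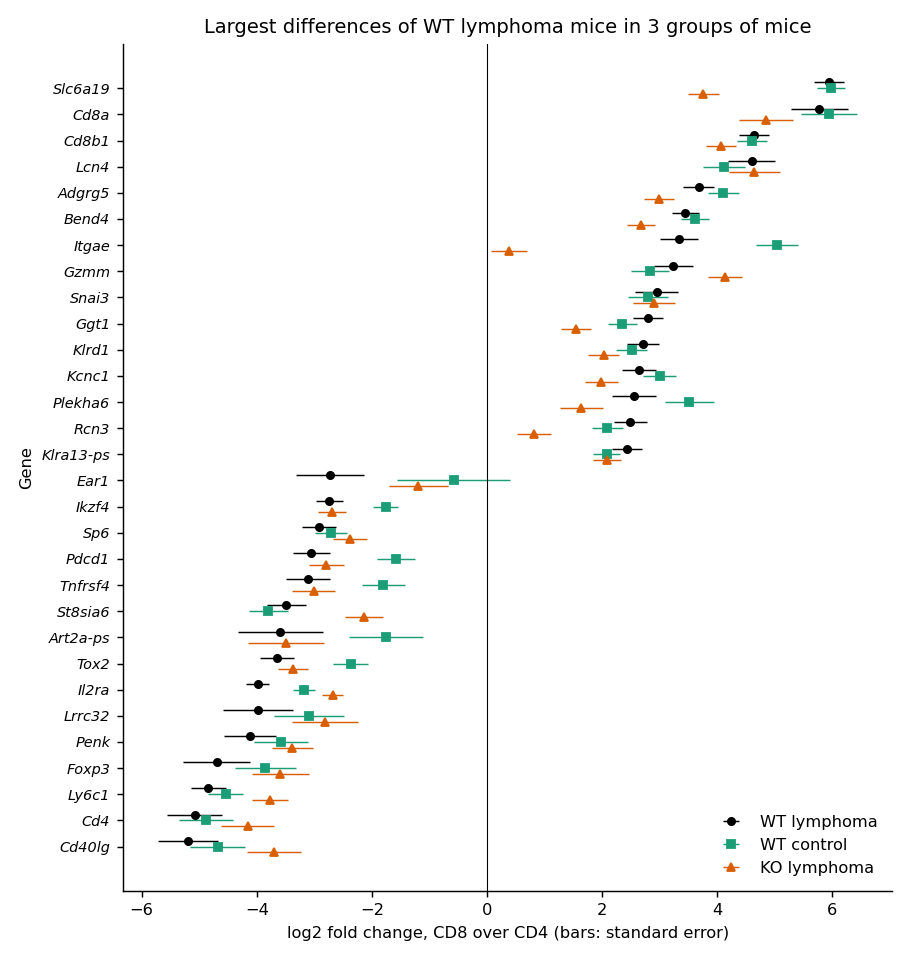
Log2 fold change of CD8 over CD4, with its standard error as a bar, in WT lymphoma (black), WT control (green) and KO lymphoma mice (orange) for the 15 largest rises and 15 largest falls of WT lymphoma mice. The genes were chosen in the WT lymphoma mice, without overlap of the cell types, and Itgae in KO lymphoma mice lies near 0.

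In KO lymphoma mice 542 genes passed (4.1%), of which 290 were among the 457 of the WT lymphoma mice (63.5% of the 457, 53.5% of the 542), 289 of them with the same sign. The contrast differed between the genotypes in 4 genes (0.0302%), among them Ccr9, Itgae and Rps16-ps2. Ccr9 was at 33.8, 75.7 and 26 CPM in CD8 and 12.2, 20.9 and 5.3 CPM in CD4 libraries of KO lymphoma mice, a difference between the genotypes of 1.59 ± 0.20 (adjusted p = 0.00896). Itgae was at 5.65, 11.6 and 4.22 CPM in CD8 and 6.6, 3.9 and 5.19 CPM in CD4 libraries of KO lymphoma mice, a difference of 2.95 ± 0.45 (adjusted p = 0.04). Both Ccr9 and Itgae rose in the WT lymphoma mice, and in KO lymphoma mice Ccr9 alone of the pair passed (1.85 ± 0.15, adjusted p = 6.06e-06). Rps16-ps2, a ribosomal protein pseudogene, was at 0 in 4 of the 6 WT lymphoma libraries.

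The call on these genes was not stable. Leaving out WT lymphoma mouse 1, 2 or 3 left 0, 0 and 1 genes, and leaving out KO lymphoma pool 1, 2 or 3 left 3, 177 and 31. With the score of other cells as a covariate none of the 4 passed, with Ccr9 at adjusted p = 0.0745 and Itgae at 0.169. That score was 6.13, 4.81 and 4.22 in the CD8 and 4.92, 4.18 and 4.67 in the CD4 libraries of KO lymphoma mice, and the median of the B cell list was -0.30 in WT lymphoma and 1.55 in KO lymphoma mice.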

How the data were processed

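Each row of the table is a mouse gene symbol with an estimated count in every library, and the authors deposited these values without stating any normalization. The submitters' processing notes list Salmon 0.11.3 with no step attached, and the human build GRCh38, whose role is not given, although samples and symbols are mouse. Positions given here come from GENCODE M21 on GRCm38, and promoter windows from RefSeq on GRCm38.p6.

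Of 34113 genes, 2 with a letter in place of a number were dropped, and values were rounded to whole numbers. Genes kept by filterByExpr (minimum count 10) numbered 13232. All 24 libraries were fitted in edgeR 4.0.16 (quasi-likelihood, robust, trimmed mean of M values) under R 4.3.3, with 1 term for each of the 12 mouse pools and 1 CD8 term for each combination of genotype and transplantation, which left 8 residual degrees of freedom. WT lymphoma libraries were thus compared within mice, n = 3 mice, and the spread was shared with the other groups. The standard error is the size of the unshrunk log2 coefficient divided by the square root of the F statistic. The log2 fold changes printed are edgeR's slightly shrunk values, so the 2 can part for genes with libraries at 0. CPM are on the scaled library sizes. Adjustment was by Benjamini-Hochberg over all genes, at 0.05. Precision is limited by 3 mice and, for genes under about 1 CPM, by counts below 10 per library.

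The pairing comes from the mouse identifier in the labels. Deviations of log2 CPM from the group mean, taken over genes, were correlated between the CD8 and CD4 library of a mouse. The correlation was 0.35, -0.0181 and 0.355 in the 3 WT lymphoma mice.

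The groups, 39 gene lists and named genes were chosen with earlier results of these data known. Named are Cd8a, Cd8b1, Cd4, Zbtb7b, Runx3 and Atm, the 15 largest rises and falls without overlap and with at least 5 CPM (leaving out antigen receptor segments, predicted genes and markers of other cells), up to 6 called members of a list, or 3 by expression where none passed, and the genes called, or the 3 smallest p, in the tests of differences. Not every one is printed, and results on a few genes are not reported here. Lists share members, and on none was a set test run. The alternatives were DESeq2 size factors, no block, a score of other cells as covariate, DESeq2 1.42.0, voom in limma 3.58.1, no filter on low counts or one of 30 counts in at least 3 libraries, the table without immunoglobulin genes and markers of other cells, subsets of the libraries and each replicate left out. The code was tested on simulated data.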

Additional observations from a re-analysis of the deposited data

Results flagged for a closer look

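Of the tests run, that of the CD8 over CD4 contrast between WT lymphoma and KO lymphoma mice marked a difference between groups, in 4 genes at an adjusted p under 0.05 in edgeR. Ccr9 differed by 1.59 ± 0.20 on the log2 scale and Itgae by 2.95 ± 0.45, with the larger CD8 excess in WT lymphoma mice in both. Rps16-ps2, a ribosomal protein pseudogene, differed by -9.84 ± 2.80 (adjusted p = 0.04). In WT lymphoma mice it was at 0, 0 and 40.4 CPM in CD8 and 0, 0 and 73 CPM in CD4 libraries, so mouse 3 alone had counts. KO lymphoma libraries had 0, 7.19 and 15.5 CPM in CD8 and 0, 0 and 0 CPM in CD4, so the fitted size depends on libraries at 0 and is no measure of the fold. Reads of a ribosomal pseudogene may be split with its parent gene, and the value is uncertain for that reason. WT lymphoma libraries held 1 mouse and KO lymphoma libraries 2 mice each, and the part of pooling in these differences was not tested.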

How the results depend on the processing

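The 457 calls between CD8 and CD4 cells of WT lymphoma mice numbered 436 to 513 with other scaling, filters, tools, the covariate or genes removed, 280 with the 12 lymphoma libraries alone, 605 with the 12 WT libraries alone and 584 with the 6 WT lymphoma libraries alone. With no replicate block 336 passed, of which 309 were among the 457 (334 with the 6 libraries alone), and in KO lymphoma mice 311 in place of 542. Leaving out 1 replicate gave 191 to 264 in WT lymphoma, 280 to 385 in WT control and 354 to 685 in KO lymphoma mice, with fewer samples in each fit. Of the 98 named genes that passed, 62 passed without each of the 3 mice and 70 without the block, and none reversed. The difference between WT lymphoma and WT control mice gave 0 genes in every setting run. That between WT lymphoma and KO lymphoma mice, 4 genes, gave 2 with DESeq2 size factors, 8 with no filter, 2 with the stricter filter, 10 with DESeq2, 2 with limma voom, 2 with no replicate block, 0 with the covariate, 0 with the 12 lymphoma libraries alone and 0 to 177 with 1 replicate left out. The cause was not tested. The share of calls that were higher in CD8 ran from 45.2 to 52.3%. Genes under 1 CPM in both cell types have few counts, so a difference there was mostly not detectable at this depth.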
